A study of Homo sapiens with 18 samples.

Results

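TRMT13, DBT, RTCA, CDC14A, EXTL2, SLC30A7, DPH5, RNPC3, PRMT6 and VAV3 are 10 of the 22 protein-coding genes in a stretch of the short arm of chromosome 1 that runs from TRMT13 at one end to VAV3 at the other. They were chosen for lower signals in a lapatinib-resistant breast cancer line than in its parent at every treatment, so the difference between the lines is what selected them and is described here with no test. The arrays carry 25 probes for these genes among 48803 in all, and 19 of the 25 passed the filter on dim probes, at least 1 for each gene. All 10 genes were therefore among the 12547 genes tested.

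The parental cells were SKBR3, an established line of human breast cancer cells that carries an ERBB2 amplification, and the other line was its lapatinib-resistant counterpart. Lapatinib is a kinase inhibitor that acts on ERBB2 and EGFR. Either line was left untreated (basal) or given lapatinib at 0.1 µM or at 1 µM, which makes 6 groups of 3 arrays, 18 samples in all. The labels do not say how long treatment lasted, whether the resistant line is a clone, or whether replicates came from separate cultures, so p-values reflect the spread of these samples alone, and that spread may be technical.

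The 10 genes have no common pathway. Several act on RNA or on the translation machinery: TRMT13 methylates the ribose of transfer RNA, RTCA makes cyclic phosphates at RNA ends, RNPC3 is a protein of the minor spliceosome, which removes a rare class of introns, and DPH5 is a methyltransferase in the synthesis of diphthamide, a modified histidine of elongation factor EEF2. PRMT6 is a nuclear arginine methyltransferase that modifies histones, CDC14A is a dual-specificity phosphatase, and VAV3 is a signalling protein that acts downstream of growth factor receptors. DBT is a core subunit of the mitochondrial complex that breaks down branched-chain keto acids, SLC30A7 carries zinc into the Golgi, and EXTL2 is a glycosyltransferase linked to heparan sulfate synthesis.

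As scanned, mean signal per array was 646 ± 25.9 (SD, n = 3) in untreated parental cells and 481 ± 40.5 in untreated resistant cells, and all groups with drug lay between 425 and 533. The background mode ranged from 70.4 to 93.6 per array, and precision is limited by the number of arrays. The labelled cell type was borne out by 7 genes of a list of 9 for SKBR3. These were above background on all 18 arrays, led by ERBB2 at 33194 to 48160. GATA3 was above background on 4 arrays. ESR1, listed as a gene that should be at background in SKBR3, was above it on 3. Of 14 markers of fibroblasts, leukocytes and endothelium, 4 were above background on all arrays, with a highest signal of 259, namely LYZ, PECAM1, CDH5 and VWF. CD14 was above background on 15 arrays, COL1A1 on 11, KDR on 5, DCN on 3, and PDGFRB and CD3E on 2, while PTPRC, the defining leukocyte marker, COL1A2, COL3A1 and LUM were above background on 0. The summed signal of the 4 endothelial markers, as scanned, was 566 to 643 in untreated parental and 427 to 449 in untreated resistant samples, and that of the fibroblast list 554 to 582 and 481 to 533. The SKBR3 list gave 98667 to 108516 and 71435 to 77658, and the leukocyte list 408 to 423 and 396 to 411. Within the endothelial list VWF ran the other way, with means over all arrays of a line of 133 in parental and 152 in resistant cells. The part of these markers and of array brightness in the results was not tested. In bulk RNA, fewer cells with a transcript and less RNA per cell cannot be told apart.

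PRMT6 had by far the largest difference between the lines among the 10 genes. Its brightest probe read 10.69, 10.48 and 10.40 on the normalized log2 scale in the 3 untreated parental samples, and 9.12, 9.14 and 9.17 in the 3 untreated resistant samples. With 0.1 µM lapatinib it read 10.46, 10.47 and 10.24 in parental cells against 9.09, 8.93 and 9.17 in resistant cells, and with 1 µM 10.20, 10.26 and 10.32 against 8.93, 8.90 and 9.002. Every resistant array lay below every parental array, and the gap was larger than the range within either line. The differences were -1.38 ± 0.10 (SE, 2.60-fold), -1.33 ± 0.10 and -1.32 ± 0.10 at the 3 treatments, n = 3 against 3 each. The second kept PRMT6 probe gave -1.08 ± 0.15, -0.94 ± 0.15 and -1.13 ± 0.15. A dimmer PRMT6 probe was above background on 0 arrays.

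TRMT13, measured by 1 probe, had the next largest differences among the 10 genes without drug and at 1 µM. It read 9.17, 8.88 and 8.89 in untreated parental cells against 8.37, 8.55 and 8.37 in untreated resistant cells, and the lines did not overlap at any treatment. Its differences were -0.55 ± 0.12, -0.40 ± 0.12 and -0.68 ± 0.12 at basal, 0.1 µM and 1 µM. The neighbour on its other side, SASS6, which encodes a scaffold protein of new centrioles and lies just outside the stretch, differed by -0.12 ± 0.13, -0.14 ± 0.13 and -0.10 ± 0.13. SASS6 and TRMT13 start back to back. In the RefSeq promoter windows, which run from 250 bases before to 50 bases after the start, 268 bases are common to both genes.

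The promoter windows of PRMT6, the gene that differed most, and of TRMT13, which shares its start region with SASS6, are shown in build GRCh38.p14, written 5′ to 3′ on the gene's own strand. Capitals mark a match, on either strand, to a motif. The motifs searched were the GC box GGGCGG, the ETS family motif CCGGAAG, the YY1 initiator motif AAGATGGC, the E-box CACGTG, the NF-Y box CCAAT, the TATA box TATAAA and the palindrome of NRF1, and none of the matches shown overlaps another.
PRMT6, chr1:107056424-107056723, plus strand: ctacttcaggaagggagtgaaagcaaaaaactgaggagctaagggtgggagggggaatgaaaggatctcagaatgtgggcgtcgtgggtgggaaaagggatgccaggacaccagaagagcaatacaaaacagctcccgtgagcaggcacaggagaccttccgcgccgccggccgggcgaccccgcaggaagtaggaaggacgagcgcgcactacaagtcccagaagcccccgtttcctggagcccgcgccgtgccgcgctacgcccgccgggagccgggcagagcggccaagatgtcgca
TRMT13, chr1:100132913-100133212, plus strand: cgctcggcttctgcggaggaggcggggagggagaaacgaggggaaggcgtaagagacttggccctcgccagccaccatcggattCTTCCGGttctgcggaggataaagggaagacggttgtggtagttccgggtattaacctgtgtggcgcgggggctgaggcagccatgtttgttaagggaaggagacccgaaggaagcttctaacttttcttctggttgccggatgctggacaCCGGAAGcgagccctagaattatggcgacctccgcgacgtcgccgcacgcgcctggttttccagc
The TRMT13 window held 2 ETS matches, both in the part it shares with SASS6, and the PRMT6 window held no match to these letters. G and C made up 60% of the TRMT13 window and 63% of the PRMT6 window, against a median of 58.7% over 35116 windows of the same length.

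**Figure D1:**
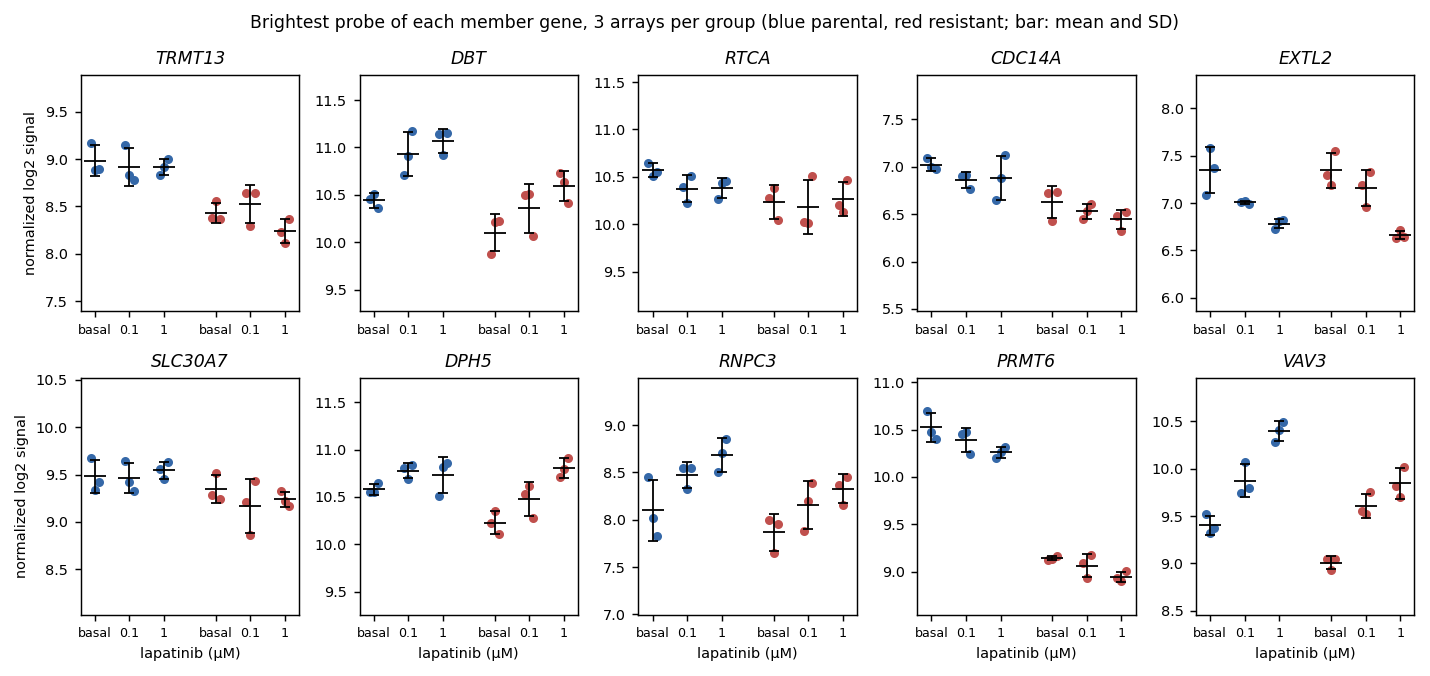
Normalized log2 signal of the brightest probe of each of the 10 genes (y axis) in the 3 arrays of each group, by line and lapatinib dose in µM (x axis), with the mean and SD as bars. All y axes span the same number of log2 units. PRMT6 is lower on all resistant arrays, EXTL2 falls with dose to about the same level in both lines, and VAV3 rises with dose in both.

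Among the other genes that act on RNA, RTCA differed by -0.34 ± 0.12 in untreated cells, with a second probe at -0.34 ± 0.11. At 0.1 µM its brightest probe gave -0.19 ± 0.12 and at 1 µM -0.12 ± 0.12, with overlapping arrays, while the second probe gave -0.09 ± 0.11 and -0.40 ± 0.11. Leaving out 1 array moved the brightest probe of RTCA between -0.36 (without resistant 0.1 µM replicate 3) and -0.11 at 0.1 µM, and between -0.22 (without resistant 1 µM replicate 3) and -0.05 (without resistant 1 µM replicate 2) at 1 µM. The size of the RTCA difference with drug thus depended on the probe. RNPC3 gave -0.23 ± 0.15, -0.32 ± 0.15 and -0.36 ± 0.15 at its brightest probe, and -0.18 ± 0.14, -0.35 ± 0.14 and -0.34 ± 0.14 at the other. Its arrays overlapped without drug and at 0.1 µM and were apart at 1 µM. Leaving out 1 array gave RNPC3 differences from -0.37 to -0.06 without drug (-0.06 without parental basal replicate 1, -0.12 without resistant basal replicate 2 and -0.37 without parental basal replicate 3), -0.43 to -0.18 at 0.1 µM and -0.45 to -0.28 at 1 µM. At its brightest probe DPH5 was lower in untreated resistant cells, with 10.22, 10.35 and 10.11 against 10.55, 10.55 and 10.65 (-0.36 ± 0.11). The same probe was lower at 0.1 µM (-0.30 ± 0.11). The second DPH5 probe, also above background on all 18 arrays, gave only -0.14 ± 0.09 without drug and -0.05 ± 0.09 at 0.1 µM. At 1 µM the arrays of the brightest DPH5 probe overlapped and the difference was 0.08 ± 0.11, with -0.10 ± 0.09 at the second probe.

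DBT was lower at every treatment at its brightest probe, by -0.34 ± 0.13, -0.57 ± 0.13 and -0.48 ± 0.13, with no overlap of arrays. Its 2 dim probes, with highest signals of 156 and 107, gave values between -0.15 and 0.11. SLC30A7, with 1 probe, gave -0.13 ± 0.13, -0.30 ± 0.13 and -0.31 ± 0.13, and its arrays were apart only at 1 µM. Without parental basal replicate 1 its basal difference was -0.03, and over all omissions of 1 array SLC30A7 ranged from -0.22 to -0.03 without drug, -0.43 to -0.15 at 0.1 µM and -0.35 to -0.26 at 1 µM. CDC14A was close to background in all samples. Its brightest probe was above background on all 9 parental arrays but on only 2 of 3 arrays in each resistant group, so its fitted differences of -0.39, -0.33 and -0.44 are not exact, and its second kept probe gave -0.0026, 0.09 and -0.03.

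The data went against the description "lower in resistance" for EXTL2. Untreated resistant samples read 7.29, 7.19 and 7.55 and untreated parental samples 7.09, 7.58 and 7.37, a difference of -0.0026 ± 0.13. At 0.1 µM the difference was 0.15 ± 0.13 and at 1 µM -0.12 ± 0.13, and its second, dimmer probe stayed between -0.06 and 0.0078. Even so, no resistant array at 1 µM was above a parental one. VAV3 was split by probe. Its brightest probe was lower in the resistant line by -0.39 ± 0.11, -0.26 ± 0.11 and -0.55 ± 0.11, whereas its second probe, also above background on all 18 arrays, gave 0.17 ± 0.11, 0.16 ± 0.11 and -0.03 ± 0.11.

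Over the 10 genes, the median difference between the lines was -0.35 at basal, -0.31 at 0.1 µM and -0.40 at 1 µM, where the medians over all tested genes were -0.00042, -0.0018 and -0.01. The rule fixes this direction, so it supports nothing by itself. As scanned, before arrays were made comparable, all 10 genes had a lower mean signal in the resistant line at every treatment, but so did the mean over all probes, at 0.745, 0.798 and 0.868 of the parental value. After normalization 8 of the 10 genes were lower at all 3 treatments, the exceptions being EXTL2 and DPH5, and 27.6% of all tested genes were. Arrays did not overlap in 7 of 10 genes at basal, 5 of 10 at 0.1 µM and 8 of 10 at 1 µM, against 17.2%, 15.4% and 21.1% of all genes lower without overlap. In 4 genes, TRMT13, DBT, CDC14A and PRMT6, this held at all 3 treatments, as it did in 6.51% of tested genes.

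Counted by probe, 13 of the 19 kept probes were lower at all 3 treatments, among them 5 of the 9 that are not the brightest of their gene. In 5 genes (TRMT13, RTCA, SLC30A7, RNPC3 and PRMT6) every kept probe was lower at all 3 treatments, and only PRMT6 reached a 2-fold difference. TRMT13 and SLC30A7 have no second probe, so for them this shows no agreement between probes. For DBT, CDC14A and VAV3, and for DPH5 without drug and at 0.1 µM, the size of the difference rested on the brightest probe. Averaging a gene's probes brought VAV3 to -0.11, -0.05 and -0.29. With probes averaged, the median over the 10 genes was -0.20, -0.18 and -0.28.

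**Figure D2:**
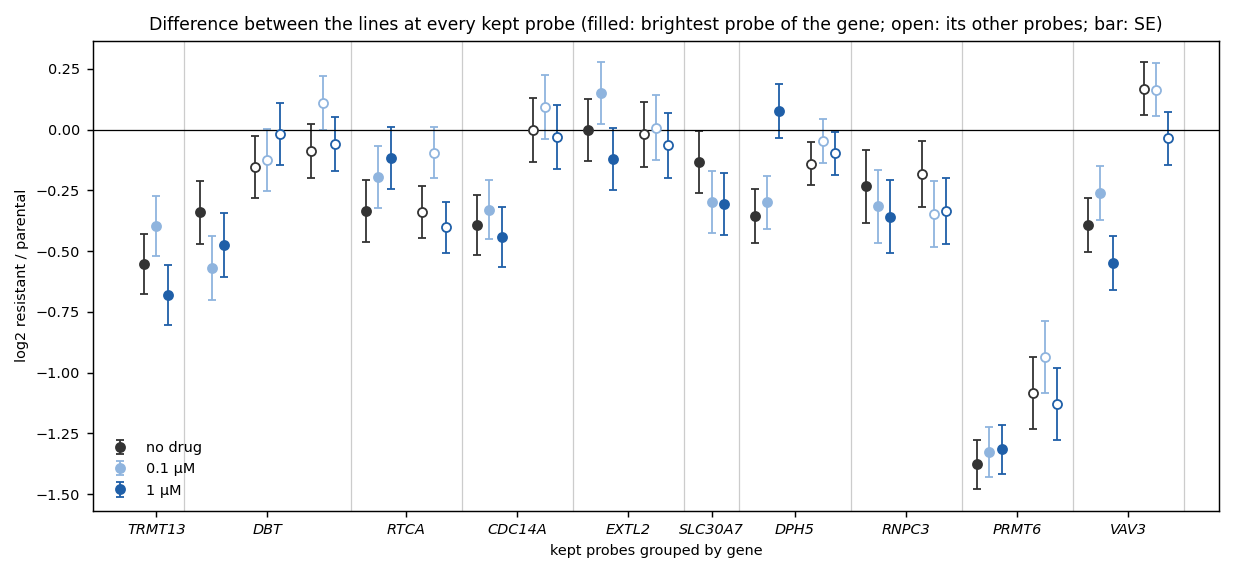
Fitted log2 difference between resistant and parental cells (y axis) at each of the 19 kept probes, grouped by gene (x axis), without drug and at 0.1 µM and 1 µM lapatinib. Filled points are the brightest probe of a gene, open points its other probes, and bars the SE. Both PRMT6 probes lie near or below -0.94 at all treatments, while the probes of VAV3, DBT and CDC14A are apart.

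The stretch holds 22 protein-coding genes in RefSeq, and of the 12 that are not among the 10, 11 have a probe with a symbol and 5 passed the filter. LRRC39, VCAM1, S1PR1, OLFM3, COL11A1 and NTNG1, which include an adhesion receptor of endothelium, a lipid receptor and a fibrillar collagen, were above background on at most 2 arrays and have no usable difference. The 5 that passed are the amylase genes AMY2B, AMY2A, AMY1A, AMY1B and AMY1C, which encode starch-digesting enzymes and lie between RNPC3 and PRMT6. Amylase genes are known as near-identical copies, and whether these probes tell them apart was not tested. Their values differed, with -0.10 ± 0.12 for AMY1C and -0.87 ± 0.13 for AMY2A at 0.1 µM, and AMY2B and AMY2A were above background on 15 and 16 of 18 arrays. All 5 were lower in the resistant line at all 3 treatments, with medians of -0.58, -0.38 and -0.55, and a range over genes and treatments from -0.87 to -0.10. At basal AMY1B gave -0.64 ± 0.10 and AMY1A -0.60 ± 0.12.

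Without drug and at 1 µM, the lower values did not end sharply at TRMT13 and VAV3. At 0.1 µM the medians of both flanks lay near that of chromosome 1. Of the 10 nearest tested genes before TRMT13, 9 were lower in untreated resistant cells (median -0.24, from -0.49 in TLCD4 to 0.29 in PALMD), 10 at 0.1 µM (median -0.09) and 8 at 1 µM (median -0.24). Of the 10 nearest after VAV3, 8, 6 and 7 were lower, with medians of -0.25, -0.06 and -0.30. Arrays were lower without overlap in 5, 0 and 7 of the 10 flanking genes before TRMT13. The same held for 5, 1 and 5 of the 10 after VAV3, and for 7, 5 and 8 of the 10 chosen genes. SLC25A24, a mitochondrial carrier just beyond VAV3, gave -0.38 ± 0.13, -0.05 ± 0.13 and -0.28 ± 0.13. GPSM2, a regulator of spindle orientation, and CLCC1, a chloride channel of the endoplasmic reticulum, lay higher in the resistant line at 0.1 µM (0.49 ± 0.10 and 0.35 ± 0.10). The lowest flanking values at 1 µM were -0.62 ± 0.11 in CNN3, before TRMT13, and -0.62 ± 0.11 in EEIG2, after VAV3. The 1292 tested genes of chromosome 1 had medians of -0.05, -0.06 and -0.07. The boundaries were drawn with these values known, so the contrast between the stretch and its flanks is a description.

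**Figure D3:**
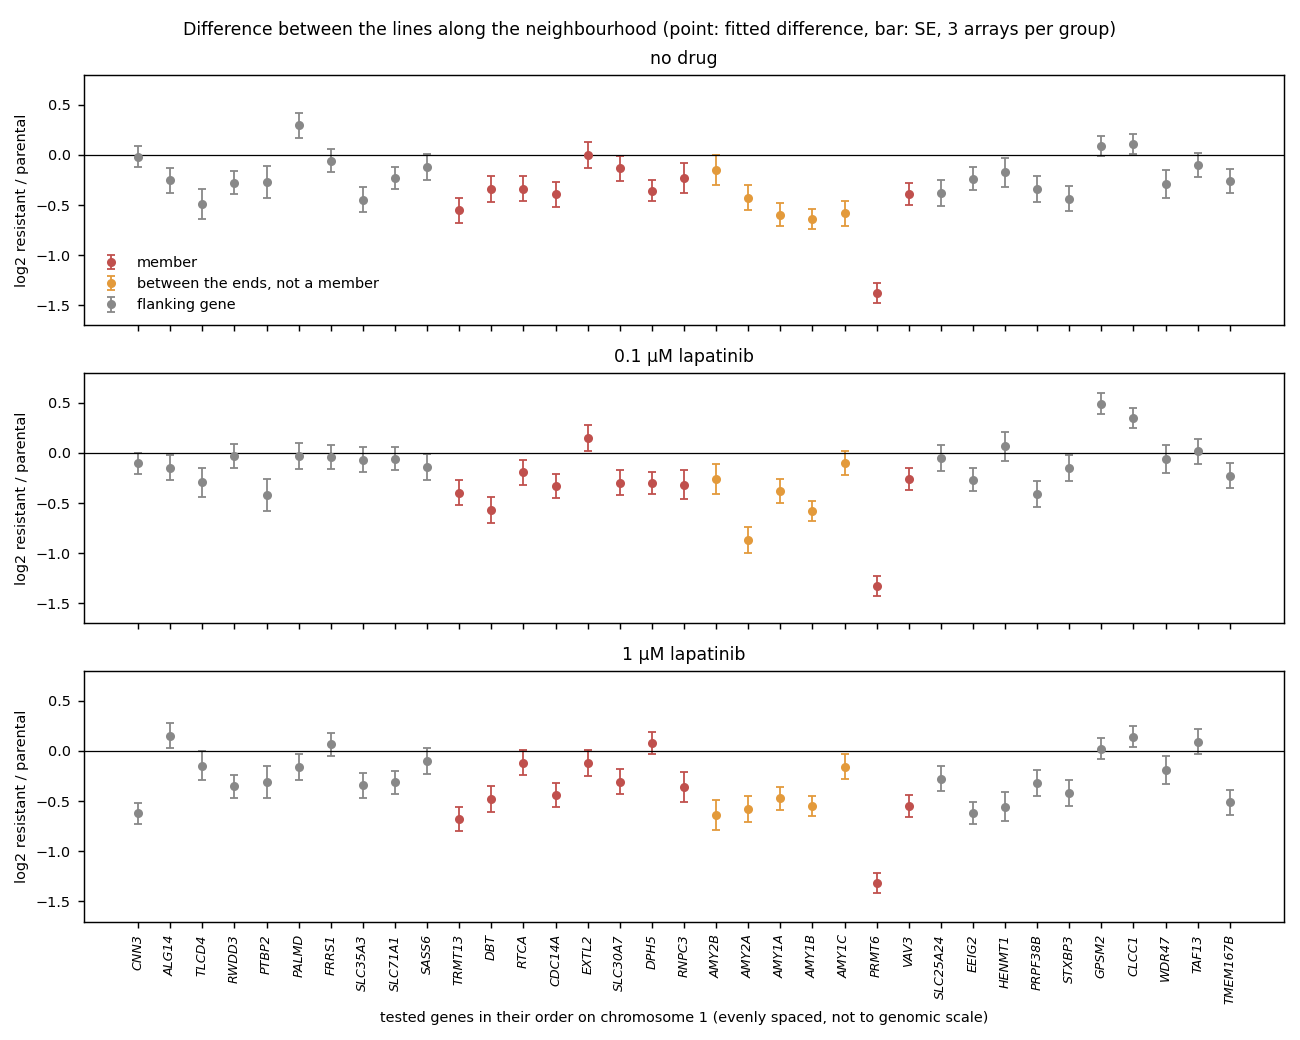
Fitted log2 difference between resistant and parental cells (y axis, bars are SE) for the tested genes in their order on chromosome 1, from 10 genes before TRMT13 to 10 after VAV3, evenly spaced along the x axis. Red points are the 10 genes, orange points the 5 amylase genes, and grey points the flanking genes. PRMT6 stands at -1.38, -1.33 and -1.32 while most other genes of the stretch lie between 0 and -0.68. The flanks hold values on both sides of 0, most of them below it.

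The responses to lapatinib within a line were not used to choose the genes, and they were tested with limma on all 12547 genes. Here the 10 genes did not move together. In parental cells at 1 µM, 3 rose (DBT, RNPC3 and VAV3) and 2 fell (EXTL2 and PRMT6), where 28% of all tested genes were called in either direction, 14.3% higher and 13.6% lower. In resistant cells at 1 µM, 4 rose (DBT, DPH5, RNPC3 and VAV3) and 1 fell (EXTL2), against 23.1% of all genes, 10.9% higher and 12.1% lower. At 0.1 µM, DBT and VAV3 rose in parental cells, 2 of 10 against 11.3% of all genes (5.93% higher and 5.34% lower), and VAV3 alone rose in resistant cells, 1 of 10 against 7.32% (4.02% higher and 3.3% lower). The doses share the basal arrays of their line, so they are only set side by side. The median response of the 10 genes lay between -0.04 and 0.02 in all 4 comparisons, where the medians over all genes lay between -0.0011 and 0.01.

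VAV3 had the strongest response. Its brightest probe rose in parental cells from 9.52, 9.32 and 9.37 without drug to 9.75, 10.07 and 9.80 at 0.1 µM and 10.28, 10.41 and 10.49 at 1 µM. In resistant cells it rose from 9.05, 8.93 and 9.05 to 9.56, 9.52 and 9.75 and then 9.82, 9.70 and 10.02. No treated array overlapped the basal arrays of its line. The changes in parental cells were 0.47 ± 0.11 at 0.1 µM (adjusted p = 0.00417) and 0.99 ± 0.11 at 1 µM (1.99-fold, adjusted p = 5.21e-08), and in resistant cells 0.60 ± 0.11 (adjusted p = 0.000646) and 0.84 ± 0.11 (1.79-fold, adjusted p = 1.22e-06). The second probe, which did not show the difference between lines, gave the same response, with 0.97 ± 0.11 and 0.77 ± 0.11 at 1 µM in parental and resistant cells (adjusted p = 1.35e-07 and 7.87e-06 over all kept probes). In order of level at the brightest probe, parental cells at 1 µM were highest (10.40), parental cells at 0.1 µM (9.87) and resistant cells at 1 µM (9.85) differed by less than their spread, then came resistant cells at 0.1 µM (9.61), whose arrays overlapped those at 1 µM, untreated parental cells (9.40) and untreated resistant cells (9.01). Under median scaling of the arrays the call in parental cells at 0.1 µM ended (0.16, adjusted p = 0.416).

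EXTL2 moved the other way. It fell in parental cells from 7.09, 7.58 and 7.37 to 7.01, 7.02 and 6.99 at 0.1 µM and 6.72, 6.81 and 6.82 at 1 µM, and in resistant cells from 7.29, 7.19 and 7.55 to 7.19, 6.95 and 7.33 and then 6.63, 6.72 and 6.64. All arrays at 1 µM lay below all basal arrays in both lines. The change at 1 µM was -0.56 ± 0.13 in parental cells (adjusted p = 0.0013) and -0.68 ± 0.13 in resistant cells (adjusted p = 0.000215), and at 0.1 µM it did not pass (-0.34 ± 0.13, adjusted p = 0.0884, and -0.19 ± 0.13, adjusted p = 0.457). The second EXTL2 probe, above background on 6 of 18 arrays and on 0 at 1 µM, gave smaller fitted values of -0.21 and -0.25, which are not exact.

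The promoter windows of VAV3 and EXTL2, whose responses to the drug ran in opposite directions, are shown in the same way.
VAV3, chr1:107688450-107688749, minus strand: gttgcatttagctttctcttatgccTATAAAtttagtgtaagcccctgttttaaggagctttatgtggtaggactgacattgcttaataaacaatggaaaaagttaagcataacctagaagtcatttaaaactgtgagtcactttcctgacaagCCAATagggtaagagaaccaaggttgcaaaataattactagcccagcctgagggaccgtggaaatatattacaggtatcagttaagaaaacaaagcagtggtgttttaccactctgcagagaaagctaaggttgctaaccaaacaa
EXTL2, chr1:100894793-100895092, minus strand: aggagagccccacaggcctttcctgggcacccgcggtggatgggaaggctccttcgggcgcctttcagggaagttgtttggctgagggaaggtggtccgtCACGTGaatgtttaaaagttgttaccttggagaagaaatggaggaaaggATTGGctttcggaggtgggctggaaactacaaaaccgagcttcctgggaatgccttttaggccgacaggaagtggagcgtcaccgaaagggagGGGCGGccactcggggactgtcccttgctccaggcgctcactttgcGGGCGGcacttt
The VAV3 window held 1 TATA box and 1 NF-Y match and is poor in G and C (38%), with a ratio of observed to expected CG pairs of 0.0931 against a median of 0.579 over all windows. Whether this window holds the start of the transcript that the VAV3 probes read was not tested. The EXTL2 window held 2 GC boxes, 1 E-box and 1 NF-Y match, and 58% of its bases are G or C. Over all 35116 windows, 11.5% held the TATA box, 34.6% the NF-Y motif, 45% the GC box and 7.26% the E-box. Across the 11 windows of the 10 genes, with 2 for CDC14A, no motif occurred in more than 6. GC boxes were in 6 genes, NF-Y in 4 and ETS in 2 (TRMT13 and SLC30A7), where 10.3% of all windows held ETS. NRF1 was in RTCA alone and YY1 in DBT alone, against 1.24% and 2.89% of windows. A match to these letters is a description and not a bound site.

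DBT rose from 10.46, 10.51 and 10.36 in untreated parental cells to 11.14, 10.92 and 11.15 at 1 µM, and from 9.87, 10.21 and 10.22 to 10.73, 10.63 and 10.42 in resistant cells, with no overlap in either line. The changes were 0.63 ± 0.13 (adjusted p = 0.000467) and 0.49 ± 0.13 (adjusted p = 0.00581). At 0.1 µM it rose in parental cells (0.48 ± 0.13, adjusted p = 0.0133) and gave 0.26 ± 0.13 in resistant cells (adjusted p = 0.269). Its 2 dim probes gave 0.18 and 0.03 in parental cells at 1 µM, and in resistant cells 0.31 ± 0.13 (adjusted p = 0.0955 over all kept probes) at the one above background on all 18 arrays and 0.06 ± 0.11 at the other, and averaged DBT probes did not pass at 0.1 µM (0.13, adjusted p = 0.411). Median scaling ended the DBT calls in parental cells at 0.1 µM and 1 µM (0.15, adjusted p = 0.423, and 0.30, adjusted p = 0.064). The call at 0.1 µM ended, too, when parental basal replicate 3 (0.44, adjusted p = 0.0624) or parental 0.1 µM replicate 3 (0.36, adjusted p = 0.104) was left out, and the call in resistant cells at 1 µM ended without resistant basal replicate 1 (0.38, adjusted p = 0.0556).

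RNPC3 rose at 1 µM in parental cells (0.58 ± 0.15, adjusted p = 0.00365) and in resistant cells (0.46 ± 0.15, adjusted p = 0.0249), with treated arrays above basal arrays in both. Its second probe gave 0.28 ± 0.14 and 0.13 ± 0.14. The call in parental cells ended under median scaling (0.36, adjusted p = 0.0996), and that in resistant cells ended there (0.35, adjusted p = 0.144), when its probes were averaged (0.29, adjusted p = 0.0765) and without resistant basal replicate 2 or resistant 1 µM replicate 1 or 3 (adjusted p = 0.147, 0.0746 and 0.105). DPH5 rose at 1 µM in resistant cells, from 10.22, 10.35 and 10.11 to 10.71, 10.80 and 10.91 (0.58 ± 0.11, 1.49-fold, adjusted p = 0.000182), and its second probe gave 0.40 ± 0.09. In parental cells DPH5 gave 0.14 ± 0.11 (adjusted p = 0.358). Its second probe rose there by 0.35 ± 0.09 (adjusted p = 0.00445 over all kept probes), and so did averaged DPH5 probes (0.25, adjusted p = 0.0202). At 0.1 µM in resistant cells DPH5 gave 0.25 ± 0.11 (adjusted p = 0.177), and 0.28 with averaged probes (adjusted p = 0.029).

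PRMT6 passed narrowly at 1 µM in parental cells (-0.26 ± 0.10, 1.20-fold, adjusted p = 0.0483), and that call is not firm. It ended in 18 of 28 alternatives (adjusted p over all 28 from 0.00067 to 0.246), among them the omission of parental basal replicate 1 or 2 (0.246 and 0.0744), of any parental 1 µM array (0.139, 0.0992 and 0.0645), of parental 0.1 µM replicate 1 or 2, or of any resistant basal or resistant 1 µM array (0.0519 to 0.0553). In resistant cells PRMT6 gave -0.20 ± 0.10 (adjusted p = 0.158). TRMT13, RTCA, CDC14A and SLC30A7 did not pass in any of the 4 comparisons, with changes between -0.19 and 0.09. Under median scaling RTCA passed in parental cells at 0.1 µM and 1 µM (-0.55, adjusted p = 0.00828, and -0.51, adjusted p = 0.00939), and EXTL2 and PRMT6 passed at 0.1 µM (-0.52, adjusted p = 0.00397, and -0.48, adjusted p = 0.00605). That scaling leaves differences in brightness in the values and lowered the median of all tested genes by 0.17 and 0.14 in these comparisons.

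**Figure D4:**
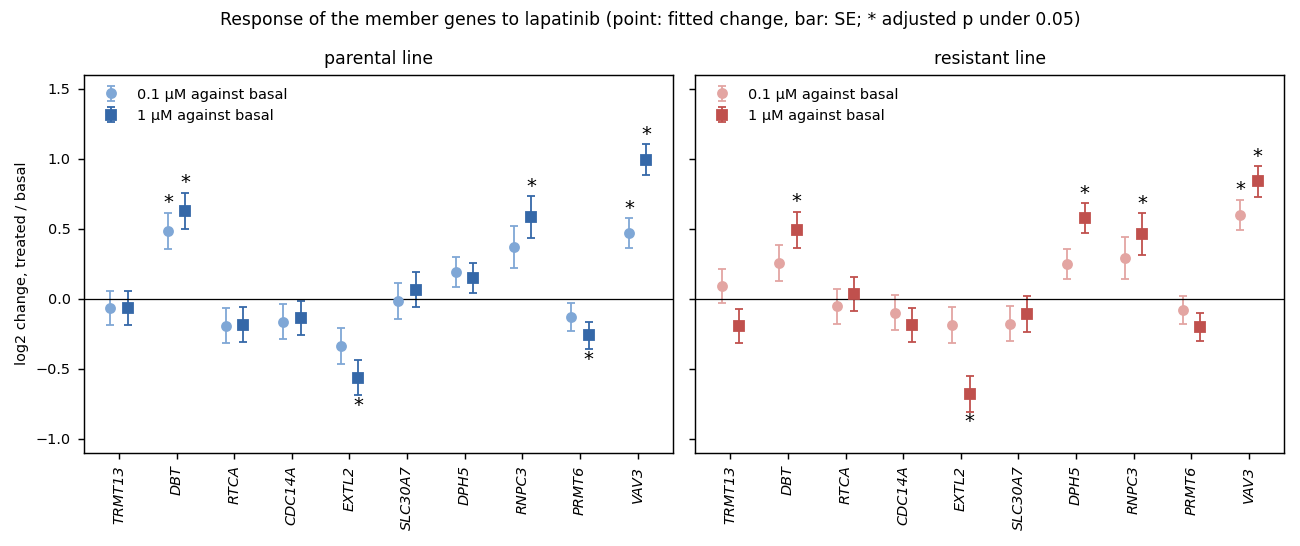
Fitted log2 change with 0.1 µM (circles) and 1 µM lapatinib (squares) against basal (y axis, bars are SE) for the 10 genes in their order on chromosome 1 (x axis), in parental cells on the left and resistant cells on the right. Asterisks mark an adjusted p under 0.05. VAV3 rises to 0.99 and 0.84 and EXTL2 falls to -0.56 and -0.68 at 1 µM.

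The differences between the responses of the lines are the same arithmetic as the differences between the lines that chose the genes, so they are given without a test. At 1 µM the largest at a brightest probe was in DPH5 (0.43 ± 0.15, larger rise in resistant cells). The second DPH5 probe gave 0.04 ± 0.13, so the larger rise rested on the brightest probe. The other genes lay between -0.17 and 0.22 at their brightest probes, with SEs of 0.14 to 0.21. At 0.1 µM all 10 lay between -0.23 and 0.16. Correlations over the 18 arrays, also those with genes outside the stretch, carry the line difference that chose the genes, and the doses. They are therefore given as a description. Across these arrays TRMT13 and PRMT6 had the highest correlation of any pair (r = 0.918), and EXTL2 and VAV3 the lowest (r = -0.716). EXTL2 was the only gene with a negative correlation to the mean of the other 9 (r = -0.305), and TRMT13 (0.834) and PRMT6 (0.839) had the highest. Outside the stretch, the genes whose pattern was most like the mean of the 10 were IQCK (r = 0.975), CDKN2B (0.973), ZHX1 (0.971), GBP1 (0.967) and CAMK1D (0.967), over 18 arrays. CDKN2B encodes an inhibitor of cyclin D kinases and GBP1, which also lies on chromosome 1, an interferon-induced GTPase.

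Functional partners and relatives of the 10 genes elsewhere in the genome played no part in the rule, and their differences between the untreated lines were tested. The lists were drawn up with earlier results of these data known, so the choice of genes was not independent of the values tested. Of 102 tested partners in 10 lists, 10 were lower (9.8%) and 4 higher (3.92%) in resistant cells, against 8.25% and 7.24% of all tested genes, so the share lower was near the background. Of 8 arginine methyltransferase genes, PRMT1, the main enzyme of the family (-0.49 ± 0.11, adjusted p = 0.00165), and PRMT3 (-0.40 ± 0.10, adjusted p = 0.00515) were lower and PRMT2 higher (0.47 ± 0.12, adjusted p = 0.00897, and 0.13 and 0.25 at further probes). The list's median was -0.20. Of 13 zinc transporters, SLC30A1, which exports zinc from the cell (-0.73 ± 0.14, adjusted p = 0.000634, and -0.67 at its other probe), and SLC30A5 (-0.44 ± 0.10, adjusted p = 0.00231) were lower, but 3 other SLC30A5 probes gave -0.01, -0.21 and 0.15, and averaged SLC30A5 probes did not pass (-0.13, adjusted p = 0.437).

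DPH2, which acts in the first step of diphthamide synthesis, was lower (-0.47 ± 0.10, adjusted p = 0.00128, and -0.23 and -0.36 at further probes), 1 of 7 in its list. Of 11 genes of branched-chain amino acid breakdown, DLD, the subunit that the DBT complex shares with pyruvate dehydrogenase (-0.43 ± 0.11, adjusted p = 0.00702), and IVD, an enzyme of leucine breakdown (-0.43 ± 0.11, adjusted p = 0.00765) were lower. Of 12 genes of heparan sulfate synthesis, EXT1, a polymerase of the chain (-0.36 ± 0.11, adjusted p = 0.0211), and XYLT1, which starts it (-0.42 ± 0.10, adjusted p = 0.00447), were lower. The EXT1 call ended without parental basal replicate 2 or 3 or resistant basal replicate 1 or 3 (adjusted p from 0.063 to 0.117), the DLD call without parental basal replicate 1 or resistant basal replicate 1 (adjusted p = 0.0594 and 0.0567), the PRMT3 call without parental basal replicate 1 (0.0544), and the IVD call without resistant basal replicate 1 (0.0592).

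Of 16 transfer RNA methyltransferase genes, TRMT11 (0.69 ± 0.13, adjusted p = 0.000566, and 0.48 at a second probe) and FTSJ1 (0.55 ± 0.12, adjusted p = 0.00237, and 0.05 and 0.07 at further probes) were higher and 0 lower. CDC25B, a phosphatase that activates cyclin-dependent kinases, was higher among 7 phosphatases (0.57 ± 0.12, adjusted p = 0.000999). Between the treated lines CDC25B did not pass, with 0.17 ± 0.12 at 0.1 µM (adjusted p = 0.355) and -0.19 ± 0.12 at 1 µM (adjusted p = 0.275). DLD did not pass there either (-0.24, adjusted p = 0.132, and -0.07, adjusted p = 0.726), nor XYLT1 at 1 µM (-0.23, adjusted p = 0.104). None of 10 minor spliceosome genes and none of 8 RNA ligation and repair genes was called, with medians of 0.13 and -0.04. All 4 calls of higher genes ended under median scaling (PRMT2 0.26, CDC25B 0.22, FTSJ1 0.24 and TRMT11 0.38, adjusted p from 0.0586 to 0.223). Averaging probes ended the PRMT2 and FTSJ1 calls (adjusted p = 0.09 and 0.151), and leaving out resistant basal replicate 3 that of PRMT2 (0.39, adjusted p = 0.0698).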

How the data were processed

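Biotin-labelled cRNA of 18 samples was hybridized to Illumina bead arrays, per the labels' protocols, and exported with BeadStudio, per the submitters' processing notes (version not given in the sources used here). One deposited table lists linear intensity values per probe as scanned, background included, without control probes or detection calls. The other deposited table lists intensity values that the authors made alike in distribution, as seen from a median of 84.7 in all columns. Both hold 48803 probes, more than the labels state.

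Values were computed with R 4.3.3 and limma 3.58.1 by normexp background correction (offset 50), quantile normalization and log2. A probe was kept if it exceeded background (the mode of an array's log2 signals, with the spread below the mode, at a tail share of 0.05) on at least 3 arrays, 22706 in all. The kept probe with the highest mean stood for a gene. Symbols were updated through RefSeq (GRCh38.p14), used for names and gene order, and promoter windows were found for all 10 genes.

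All 18 arrays entered 1 linear model (lmFit, eBayes with trend, two-sided, Benjamini-Hochberg adjustment over 12547 genes, threshold 0.05). The members, their interval and the lists were chosen with earlier results of these data known. Named were the 10 genes, their neighbours and 10 flanking genes each side, up to 3 called genes per partner list, and the 5 genes most like the mean pattern. The test was checked on simulated data. The result of 1 of the 10 partner lists is not reported here by itself.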

Additional observations from a re-analysis of the deposited data

How the results depend on the processing

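The 10 genes' median difference between the lines kept its sign under every alternative run, and EXTL2 was not lower at all 3 treatments under any. Leaving out 1 array gave medians of -0.376 to -0.333 at basal, -0.395 to -0.282 at 0.1 µM and -0.445 to -0.298 at 1 µM. Median scaling, which leaves brightness in, moved the basal median to -0.69 and, relative to the median gene (chosen after seeing the data, shift -0.19), to -0.50, and the amylase median to -0.95 and -0.76 at basal and -0.54 at 0.1 µM. It moved the median difference of responses to 0.26 at 0.1 µM and 0.0468 at 1 µM, turned DPH5 at 1 µM to -0.08 and EXTL2 at basal to -0.19, gave 3645 called genes for parental 0.1 µM in place of 1414, and 48 lower and 0 higher partners. Without a filter, interval genes near background brought the neighbours' medians to -0.0586, -0.0612 and -0.0982. With the mean of probes, 1 member was called in parental and 2 in resistant cells at 0.1 µM.

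Fitting only the groups compared gave 282 called genes in resistant cells at 0.1 µM in place of 918, and 7 higher partners. Leaving out 1 array gave 1 to 4 members called in parental and 1 to 3 in resistant cells at 0.1 µM (4 without parental basal replicate 1, 1 without parental basal or 0.1 µM replicate 3, and 3 without resistant 0.1 µM replicate 3, where DBT and DPH5 passed at 0.0464 and 0.046), 601 to 1063 genes there (601, 607 and 603 without resistant basal replicate 1, 2 and 3), and 3 to 7 higher partners (7 without resistant 0.1 µM replicate 1 or 3). Without parental basal replicate 1, EXTL2 and RNPC3 also passed in parental cells at 0.1 µM (adjusted p = 0.0268 and 0.0212). Replicate numbers did not pair the samples (median correlation of deviations -0.011 over 45 same-numbered pairs, above 0.1 in 3). With the replicate block 4 members were called in parental cells at 1 µM (PRMT6 adjusted p = 0.0592), no other member call changed, and 6 partners were higher. Signals near background limit CDC14A and the dimmer probes.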
